A study of Mus musculus with 4 samples.

Results

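Chromosomes 8 and 14 are the 2 autosomes with the lowest read depth in Naa10 knockout (KO) relative to wild-type (WT) mouse embryonic stem (ES) cells, and they are described here in bins of 1 Mb. All cytosines listed on them were used except those above the 99.9th percentile of depth in any library, which leaves 128 bins of chromosome 8 and 123 bins of chromosome 14, together 251 of the 2417 autosomal bins. The bins lie in the mouse build mm9. The values that chose these chromosomes are their KO to WT depth ratios, so depth is described without a test.

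The 4 libraries are 2 of KO ES cells and 2 of WT ES cells, made by reduced representation bisulfite sequencing, a method that cuts DNA with the enzyme MspI and reads methylation at CpG sites near the cuts. Naa10, a gene on chromosome X, encodes the catalytic part of an N-terminal acetyltransferase. Cells of both genotypes were grown on irradiated feeders in medium with LIF and Mek and Gsk3 inhibitors, and then for 5 passages without feeders. The labels do not say how the knockout was made, or whether the libraries of a genotype come from separate cultures or clones, so the spread between them may be technical, and genotype and line history cannot be told apart. DNA shows no expression, and the cell type was not checked by markers.

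Each read of a cytosine is a call, either methylated or not. The number of calls on a stretch of DNA follows how many copies the cells carry, and how well its fragments are cut, kept by size and amplified. Mouse ES cells are known to gain whole chromosomes in culture, and chromosome 8 is the one most often found gained. In bulk DNA, a small difference carried by every cell and a larger one carried by some of the cells cannot be told apart. Methylation is a ratio of calls at the same cytosine, so it is not a direct function of depth.

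The KO libraries held 68929594 and 70594987 calls, against 79540412 and 68586396 calls in the WT libraries. After the deepest cytosines were left out, the KO libraries had 64381058 and 66160057 autosomal calls and the WT libraries 74753423 and 64444922. For depth, bins needed a mean of 5000 calls per library, which 99 bins of chromosome 8 and 84 of chromosome 14 passed, of 1887 on all autosomes. Between the libraries of a genotype, bin counts differed beyond counting error: chi-square divided by its degrees of freedom was 11.7 in KO and 8.53 in WT.

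Chromosome 8 took a smaller share of the autosomal calls in KO. The share was 6.12% and 6.11% in the KO libraries, against 7.11% and 7.10% in the WT libraries. The libraries of a genotype were close to each other and the genotypes did not overlap. The mean share was 6.11% ± 0.00522 in KO and 7.11% ± 0.0127 in WT (SD, n = 2 each), a KO to WT ratio of 0.861, while the ratio of replicate 2 to replicate 1 was 0.999 in KO and 0.998 in WT.

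Chromosome 14 showed a smaller difference of the same sign. Its share was 3.56% and 3.57% in KO, against 3.73% and 3.73% in WT, with means of 3.57% ± 0.00721 in KO and 3.73% ± 0.00275 in WT (SD, n = 2 each) and a ratio of 0.956. The ratios of the other 17 autosomes ran from 0.996 on chromosome 1 to 1.03 on chromosome 6. The nearest autosome to the 2 described here was thus chromosome 1. Because shares add up to 100%, a low share on chromosome 8 raises the others, and the other 17 autosomes together had a ratio of 1.01. Taken as shares of those 17 alone, the ratio was 0.850 for chromosome 8 and 0.944 for chromosome 14.

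Depth per cytosine within a library shows on which side each chromosome stood out. For this the mean calls per cytosine were divided by the mean over the other 17 autosomes of the same library, over cytosines with a call in all 4 libraries. Chromosome 8 had a relative depth of 1.02 and 1.02 in KO, against 1.20 and 1.20 in WT. The other 17 autosomes, each taken alone, had mean relative depths of 0.95 to 1.05 in KO and 0.951 to 1.06 in WT. Chromosome 8 therefore lay inside the range of the other autosomes in KO and above that range in WT. Relative depth also follows fragment recovery, which differs between chromosomes, so it is not a count of copies.

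Chromosome X, which carries Naa10, had a relative depth of 0.554 and 0.553 in KO, against 0.567 and 0.571 in WT, far below every autosome in each library.

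Cut at 69 Mb, a place fitted to the depth ratios as described below, the 2 sides of chromosome 14 differed in the same measure. The part before 69 Mb had a relative depth of 1.00 and 1.01 in KO, against 1.04 and 1.04 in WT. The part beyond it had 0.944 and 0.946 in KO, against 1.04 and 1.04 in WT. Over all cytosines the WT libraries thus differed little between the sides, and the KO libraries were lower beyond 69 Mb. This did not hold in each class of cytosines: with 40 or more listed per kb, mean relative depth beyond and before 69 Mb was 1.00 and 0.995 in KO, against 1.099 and 1.03 in WT, and with 10 to 39 listed per kb it was 0.915 and 1.03 in KO, against 1.00 and 1.07 in WT. Over all cytosines, the WT values of both sides lay inside the range of the other autosomes. The distal KO mean over all cytosines, 0.945, lay just below the lowest of the other autosomes, 0.95 on chromosome 13.

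**Figure D1:**
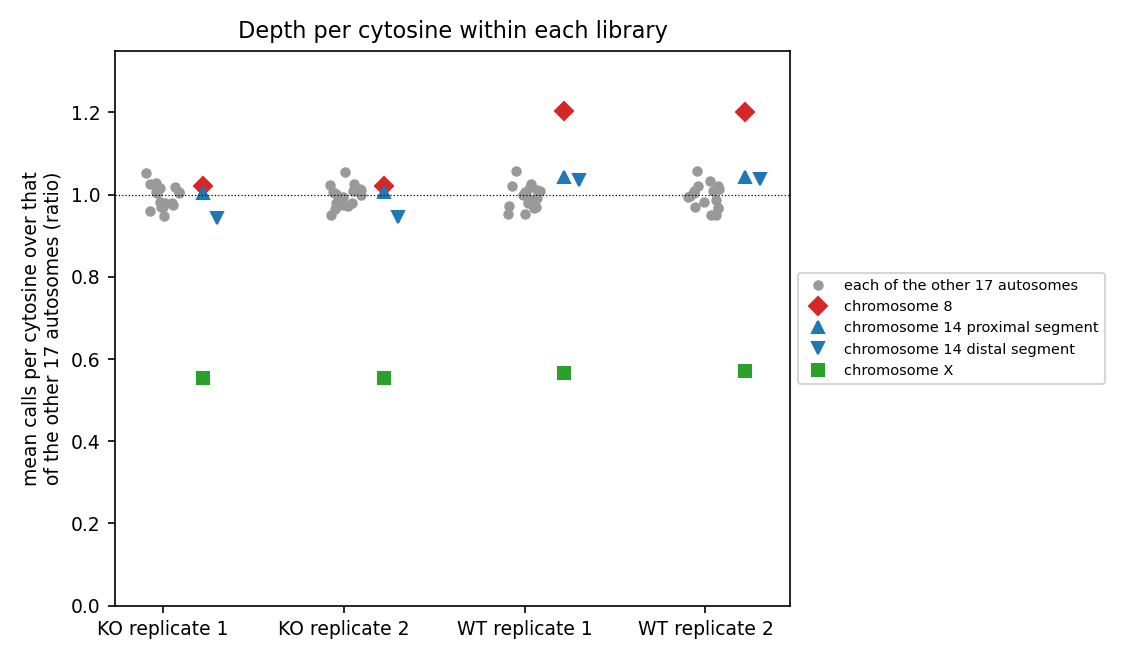
Depth per cytosine of chromosome 8, of the 2 segments of chromosome 14 and of chromosome X in each library, as a ratio to the mean of the other 17 autosomes of that library (vertical axis); grey points are those 17 autosomes one by one. Chromosome 8 stands at 1.02 in both KO libraries and at 1.20 in both WT libraries, and the distal segment of chromosome 14 at 0.944 and 0.946 in KO and 1.04 in WT.

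Along chromosome 8 the low ratio was present from end to end. Of the 99 bins, 98 had a ratio below 1, and in 96 both KO shares lay below both WT shares, against 20.3% of all autosomal bins. A ratio of 0.9 or less with both KO shares below both WT shares was found in 85 of the 99 bins, against 5.25% of the autosomal bins (99 of 1887). Since chromosome 8 was chosen for its ratio, nothing is read from these shares. The median bin ratio was 0.862, and the range was 0.810 to 1.03.

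The first kept bin, from 3000001 to 4000000, had 611 and 615 calls per 1000000 autosomal calls (CPM) in KO, against 693 and 666 in WT, a ratio of 0.902. The last, from 131000001 to 132000000, had 130 and 126 in KO, against 149 and 146 in WT, a ratio of 0.867. Both ends of the measured chromosome thus lay below 1, with no overlap between the genotypes.

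The lowest ratios of chromosome 8 lay between 33 and 98 Mb. Bin 33000001 to 34000000 had 197 and 204 CPM in KO, against 244 and 251 in WT, a ratio of 0.810. Bin 90000001 to 91000000 had 890 and 891 in KO, against 1099 and 1089 in WT, a ratio of 0.814. Bin 97000001 to 98000000 had 1211 and 1216 in KO, against 1473 and 1495 in WT, a ratio of 0.818. In these 3 bins the gap between the genotypes was several times the gap between libraries of one genotype.

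The 3 highest ratios belonged to bins with few calls and high methylation in WT. Bin 5000001 to 6000000 had 84.6 and 83.6 CPM in KO, against 80.0 and 83.3 in WT, a ratio of 1.03 from a mean of 5581 calls per library. Bin 19000001 to 20000000 had 142 and 152 in KO, against 148 and 152 in WT, a ratio of 0.980. Bin 115000001 to 116000000 had 73.3 and 77.5 in KO, against 79.3 and 76.0 in WT, a ratio of 0.971. Bin 5000001 to 6000000 is the one bin above 1, with both KO values above both WT values by less than the gap between the WT libraries. Its ratio turned to 0.962 over cytosines with 10 calls or more in every library, and to 0.975 after correction for the WT methylation and calls of the bin, a correction added after seeing the data. In the other 2 the genotypes overlapped. The WT methylation level of the 3 bins was 89.0%, 59.4% and 90.1%, in that order.

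How far single bins scatter depends on their calls. On the other 17 autosomes the SD of the log2 ratio of KO to WT was 0.07 in bins of 5000 to 10000 calls and 0.03 in bins of 50000 or more. The 30 bins of chromosome 8 with 50000 calls or more had ratios of 0.814 to 0.903, and the 15 bins with 5000 to 10000 calls ratios of 0.822 to 1.03. The wide end of the range thus came from thin bins. No kept bin of chromosome 8 or 14 had a ratio of replicate 2 to replicate 1 of 0.9 or less in either genotype. In KO the highest such ratio was 1.11 on chromosome 8 and 1.13 on chromosome 14, so single bins also differed by about this much between replicates.

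Whether the ratio changes in steps was described with a least squares fit of segments of constant log2 ratio along each autosome, in which a step is a change of at least 0.1 in log2. No step was found on chromosome 8, although 2 were when bins of any number of calls were kept. The fit placed 2 smaller changes there, and so cut the chromosome into a proximal segment from 3000001 to 29000000, a middle one from 32000001 to 110000000 and a distal one from 110000001 to 132000000. Their mean ratios were 0.892 over 20 bins, 0.848 over 57 bins and 0.886 over 22 bins. The changes were -0.07 and 0.06 in log2, about as large as the scatter of single bins within a segment, whose SD was 0.08, 0.04 and 0.04 in log2. The middle of chromosome 8 was thus slightly lower than its ends, and the ends were also well below 1.

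Per library, the proximal segment took 1.01% and 1.02% of autosomal calls in KO, against 1.15% and 1.15% in WT. The middle segment took 3.26% and 3.24% in KO, against 3.87% and 3.87% in WT. The distal segment took 1.83% and 1.83% in KO, against 2.07% and 2.06% in WT. In each segment the genotypes were apart by many times the gap between replicates. Summed over calls, the ratios were 0.879, 0.841 and 0.886.

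The places of the changes on chromosome 8 moved with the settings. The first lay between 28.5 and 32 Mb under most settings, and between 50 and 59 Mb when only bins of 20000 calls or more were kept. The second lay between 102 and 112 Mb in all settings tried. Without a minimum of calls per bin the fit placed 3 changes. When WT methylation and calls of the bin were taken out by a linear fit over the other autosomes, a choice made after seeing the data, the 3 segments had ratios of 0.872, 0.836 and 0.862.

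On chromosome 14 the fit placed 1 change, at 69000000, which also fell just short of a step. The proximal segment, from 8000001 to 69000000, had a mean ratio of 0.977 over 52 bins. The distal segment, from 69000001 to 124000000, had a mean ratio of 0.915 over 32 bins. The change was -0.09 in log2, against an SD of single bins of 0.05 and 0.04 within the segments. It became a step of at least 0.1 when KO replicate 2 was left out, with ratios of 0.975 and 0.910.

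The bins of the 2 segments differed in how often the genotypes separated. The cut was fitted to these same bin ratios, so the counts describe the segments and are no further evidence for them. Beyond 69 Mb all 32 kept bins had a ratio below 1 and both KO shares below both WT shares. Before 69 Mb 39 of 52 bins had a ratio below 1, and 34 had both KO shares below both WT shares. On all autosomes 5.25% of bins were at 0.9 or less with separated genotypes, and on the other 17 autosomes 7 of 1704. Chromosome 14 had 7 such bins of 84, all beyond 69 Mb. Their number over the whole chromosome was 14 with shares taken of the other 17 autosomes, 12 with the median bin set to 1 and 2 among bins of 20000 calls or more.

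The distal segment took 1.22% and 1.23% of autosomal calls in KO, against 1.33% and 1.33% in WT. The proximal segment took 2.31% and 2.32% in KO, against 2.37% and 2.37% in WT. Both segments were lower in KO in both libraries. The KO to WT ratio of summed calls was 0.922 beyond 69 Mb and 0.975 before it, while replicate 2 over replicate 1 was between 1.00 and 1.003 in both segments and both genotypes.

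The lowest ratio of chromosome 14 belonged to bin 84000001 to 85000000, with 85.9 and 85.7 CPM in KO, against 102.3 and 101.1 in WT, a ratio of 0.844. Bin 69000001 to 70000000, the first of the distal segment, had 295 and 313 in KO, against 350 and 358 in WT, a ratio of 0.860. Bin 104000001 to 105000000 had 317 and 339 in KO, against 376 and 385 in WT, a ratio of 0.862. In all 3 bins both KO values lay below both WT values.

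The highest ratios of chromosome 14 all lay in the proximal segment. Bin 16000001 to 17000000 had 103 and 108 CPM in KO, against 102 and 97.4 in WT, a ratio of 1.06. Bin 50000001 to 51000000 had 97.7 and 99.7 in KO, against 92.4 and 95.2 in WT, a ratio of 1.05. Bin 25000001 to 26000000 had 379 and 370 in KO, against 369 and 351 in WT, a ratio of 1.04. The genotypes did not overlap in these 3 bins, but the nearest KO and WT values were closer to each other than the WT libraries were. The first kept bin of the chromosome, from 8000001 to 9000000, had a ratio of 0.966, and the last, from 123000001 to 124000000, one of 0.892.

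**Figure D2:**
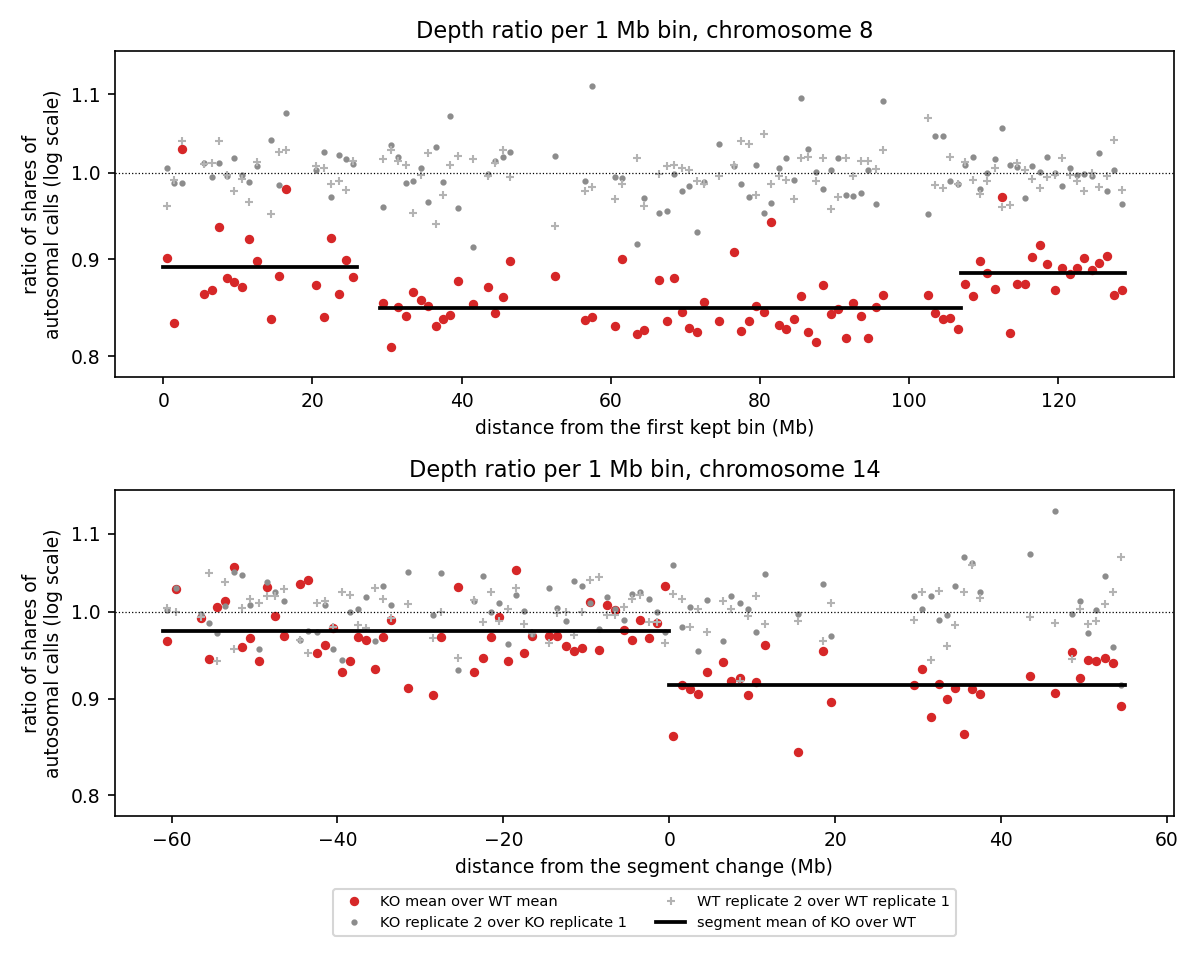
Ratio of the shares of autosomal calls in 1 Mb bins (log axis) along chromosome 8, by distance from its first kept bin, and along chromosome 14, by distance from the change between its segments. Red points are the KO mean over the WT mean, black lines the segment means, and grey marks the ratio of replicate 2 to replicate 1 within each genotype, which scatter around 1 while the red points lie around 0.848 to 0.892 on chromosome 8 and drop past the change on chromosome 14.

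The sequence around the change on chromosome 14 was looked at in bins of 250 kb, a view chosen after seeing the data. From 67000001 to 69750000 the 11 bins had ratios of 0.963 to 1.08. Bin 69750001 to 70000000 had 253 and 271 CPM in KO, against 308 and 317 in WT, a ratio of 0.839. The 4 bins from 70000001 to 71000000 had ratios of 0.913 to 0.918. Between 69000001 and 69750000 the bins held means of only 516 to 1565 calls per library, so the place of the change is uncertain by about that length. The gene table at hand belongs to another assembly, GRCm38, and no gene was assigned to these positions.

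Changes of this size were found on other autosomes too, most of them beside a segment of few bins. The other 17 autosomes held 17 changes on 9 autosomes, between 0.04 and 0.13 in log2, and 9 of them, on 6 autosomes, were steps. In 16 of the 17 a segment of fewer than 20 bins stood on one side. The exception, on chromosome 12, had 47 and 45 bins and a change of 0.04 in log2. Each of the 3 changes on chromosomes 8 and 14 had 20 bins or more on both sides. The limit of 20 was not set beforehand and equals the shortest of these sides, so nothing is read from the contrast. With the penalty doubled, 1 change was left on the other autosomes, on chromosome 5, and the 2 changes of chromosome 8 and the one of chromosome 14 stayed. With the penalty halved, the other autosomes held 56 changes, chromosome 8 kept 2, and chromosome 14 had 3, with ratios of 0.996, 0.951 and 0.978 before 69 Mb. The ratio of replicate 2 to replicate 1, fitted in the same way, gave no change on chromosome 8 or 14 in KO or in WT, and 6 and 3 changes on the other autosomes.

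The lowest segment mean on the other autosomes was 0.923, over 3 bins of chromosome 2. The segment means of chromosome 8 were all below that value, and so was that of the distal segment of chromosome 14, at 0.915. Among the 1704 bins of the other 17 autosomes, 7 had a ratio of 0.9 or less with separated genotypes. No bin of chromosome 8 or 14 had a ratio of 1.1 or more with both KO shares above both WT shares, against 1.06% of autosomal bins.

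The depth difference was present in every class of cytosines. Cytosines were grouped by the number of cytosines listed per kb and by WT methylation, and the ratio was divided by that of the other 17 autosomes in the same class. On chromosome 8 it was 0.853 with 1 to 9 listed cytosines per kb, 0.856 with 10 to 39 and 0.844 with 40 or more. Split by WT level instead, the values were 0.844 (under 10%), 0.855 (10 to 80%) and 0.857 (80% or more). The classes of chromosome 8 thus differed by little, while the other autosomes themselves had ratios of 0.992 to 1.06 over these classes.

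The distal segment of chromosome 14 was also low in each class. Its ratio over the other autosomes was 0.904, 0.913 and 0.911 in the 3 density classes, and 0.914, 0.911 and 0.907 in the 3 classes of WT level. The proximal segment stayed between 0.957 and 0.968. The order of the 2 segments was the same in all 6 classes. The density and WT-level classes share calls, and the segments were fitted to the ratio of these calls, so these are not 6 separate checks.

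**Figure D3:**
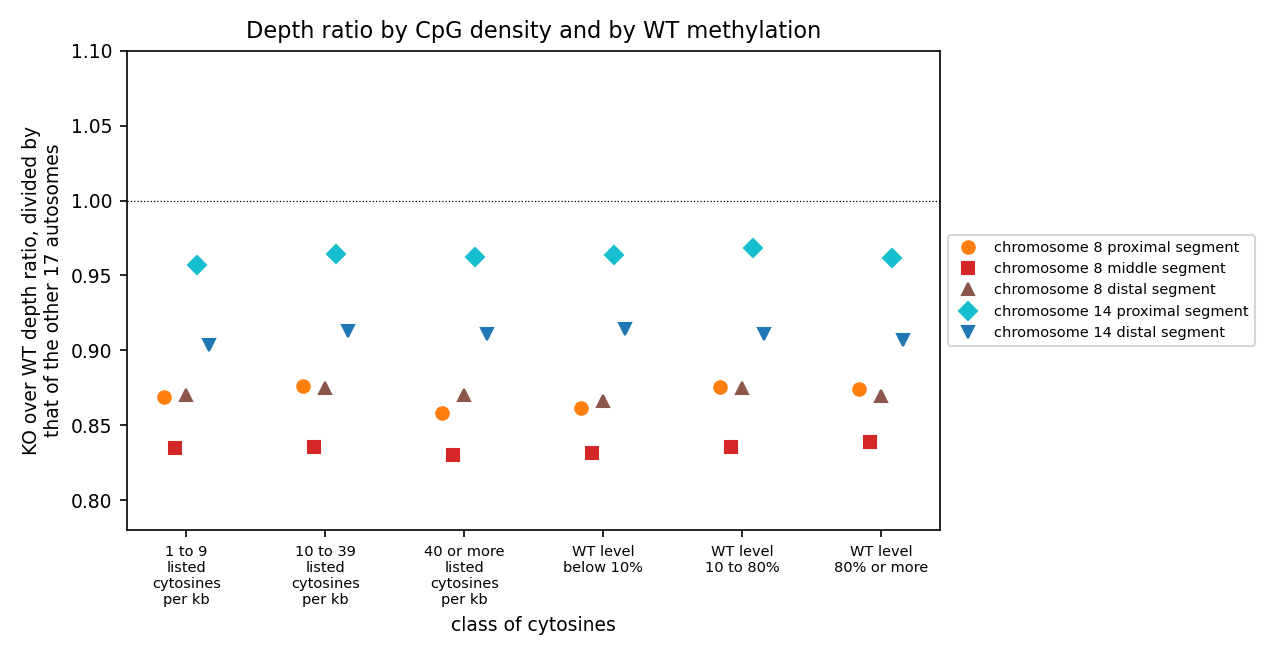
KO to WT depth ratio of each segment divided by that of the other 17 autosomes (vertical axis, starting at 0.78) for 3 classes of listed cytosines per kb and 3 classes of WT methylation. The middle segment of chromosome 8 is the lowest and the proximal segment of chromosome 14 the highest of the 5 in every class.

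Single cytosines showed the same difference on a finer scale. They hold the calls from which the chromosomes and the cut at 69 Mb were chosen, so these shares are no separate evidence. Among cytosines with 10 calls or more in every library, both KO depths, taken as shares of the library, lay below both WT depths at 38.9% of 117975 cytosines of chromosome 8 and at 22.02% of 68250 of chromosome 14, against 17.1% over all autosomes. On the other 17 autosomes alone it was 15.4%. On chromosome 14 this was 20.1% before and 25.7% beyond 69 Mb. The opposite arrangement was found at 6.31% on chromosome 8 and 14.4% on chromosome 14, against 19.8% on the other 17 autosomes.

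No cytosine of chromosome 8 or 14 was covered 10 times or more in each WT library and by no call in KO, as on 9 of the other 17 autosomes; the rest of those held 49 such cytosines. The opposite was seen at no cytosine of chromosome 8 and at 3 of chromosome 14, against 1 on the other 17 autosomes. On either chromosome, every position this deep in WT thus had KO calls.

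Methylation was lower in KO on both chromosomes, by about the same proportion as elsewhere. Over 117975 cytosines of chromosome 8 with 10 calls or more in every library, 11.1% and 7.37% of calls were methylated in KO, against 31.3% and 31.4% in WT. Over 68250 cytosines of chromosome 14, 10.7% and 7.05% were methylated in KO, against 29.7% and 29.6% in WT. Both KO libraries lay far below both WT libraries on either chromosome. The KO minus WT difference was -22.1 points on chromosome 8 and -20.7 on chromosome 14. An exact permutation test, two-sided, had p = 0.333 on each chromosome, the smallest that 2 against 2 libraries allow.

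Set against the WT level, the KO level was 29.5% of WT on chromosome 8 and 30.0% on chromosome 14. The other 17 autosomes together had 29.7%, and one by one 28.9% to 31.3%. Both chromosomes thus lay inside the range of the others. KO replicate 2 had 66.3% of the level of replicate 1 on chromosome 8 and 65.7% on chromosome 14, against 66.3% on the other autosomes, so the 2 KO libraries differed from each other to the same degree.

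Highly methylated cytosines were rare in KO on both chromosomes, as elsewhere. A level of 80% or more was found at 0.315% and 0.0534% of cytosines of chromosome 8 in KO, against 26.6% and 26.5% in WT. On chromosome 14 it was found at 0.443% and 0.105% in KO, against 26.2% and 26.2% in WT. On the other 17 autosomes it was found at 0.334% and 0.0681% in KO, against 24.0% and 23.9% in WT. On chromosome 8, 54.5% and 57.6% of cytosines had no methylated call in KO, against 45.5% and 46.7% in WT. Many cytosines of these CpG-rich fragments were thus unmethylated in both genotypes.

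Bins with 50 such cytosines or more were tested for methylation with edgeR's quasi-likelihood test, adjusted by the Benjamini-Hochberg method over all chromosomes. Of 121 bins of chromosome 8, 119 were lower in KO at an adjusted p below 0.05 and by 10 points or more, and of 110 bins of chromosome 14, 105 were, against 96.5% of all bins (2328 of 2413). No bin was called higher on either chromosome, against 0% of all bins, and every bin tested on them had a lower level in KO. The highest adjusted p of any bin tested was 0.00191 on chromosome 8 and 0.0148 on chromosome 14 in edgeR's test, so the few bins not called missed only the 10 points. Without WT replicate 1, 20 bins of chromosome 8 and 19 of chromosome 14 were called, and without WT replicate 2, 21 and 23, because the spread is then estimated from the KO pair alone. The median difference was -24.7 points on chromosome 8 and -25.4 on chromosome 14, beside -22.9 over all bins tested.

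When each library was centred on its median bin and tested with limma, 54 bins of chromosome 8 and 47 of chromosome 14 lay below the shift, against 34.5% of all bins, and 15 and 23 lay above it, against 20.2%. The median bin stood at -0.09 in log2 odds from the centre on chromosome 8 and at -0.06 on chromosome 14.

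The retained share of methylation had no common order with the depth ratio of the segments. It was highest in the segment of lowest depth ratio on chromosome 8, and slightly lower in the segment of lower depth ratio on chromosome 14. The KO level was 29.5%, 30.0% and 28.4% of WT in the proximal, middle and distal segments of chromosome 8, whose depth ratios were 0.892, 0.848 and 0.886. On chromosome 14 it was 30.2% of WT before and 29.8% beyond 69 Mb, where the depth ratios were 0.977 and 0.915. Of the 5 segments, 4 lay within the range of the other autosomes. The distal segment of chromosome 8 lay just below the lowest of these, at 28.9% on chromosome 5.

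The levels themselves differed between segments in both genotypes. The middle segment of chromosome 8 had 9.47% and 6.30% in KO, against 26.3% and 26.3% in WT. The distal segment had 13.5% and 8.93% in KO, against 39.4% and 39.6% in WT. The proximal segment had 12.0% and 7.89% in KO, against 33.5% and 33.8% in WT. The segment with the lowest depth ratio was thus also the least methylated in WT. On chromosome 14 the proximal segment had 10.4% and 6.86% in KO, against 28.7% and 28.5% in WT, and the distal segment 11.2% and 7.36% in KO, against 31.1% and 31.2% in WT. There the segment with the lower depth ratio was the more methylated of the 2.

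**Figure D4:**
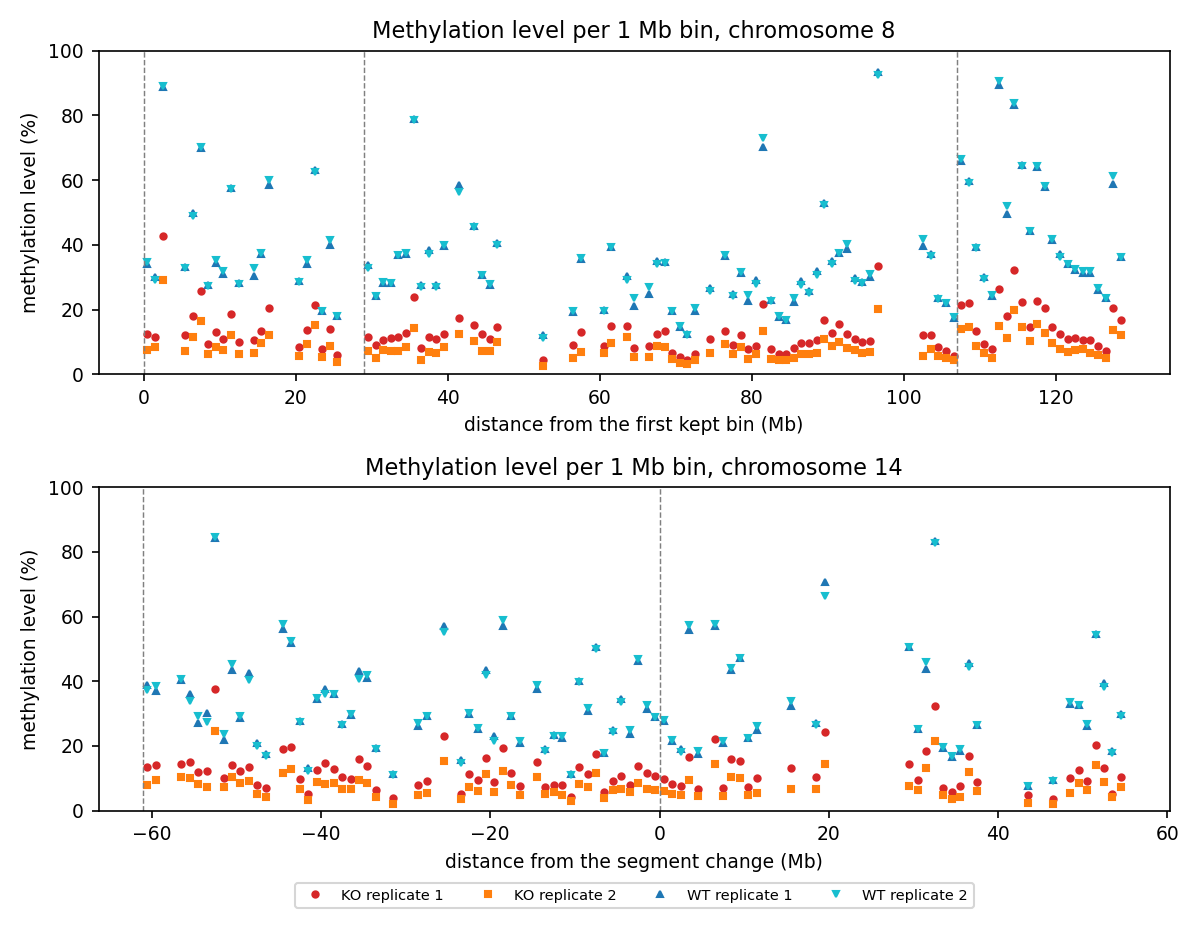
Methylation level (%) of 1 Mb bins in each library along chromosomes 8 and 14, with dashed lines where the depth segments begin. KO replicates 1 and 2 lie below both WT replicates in all 99 and 84 bins shown, on either side of each dashed line.

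Split by depth ratio into 3 groups of 33 bins, chromosome 8 had a KO level of 30.9% of WT in the group with ratios of 0.810 to 0.843, 29.0% at 0.844 to 0.874 and 28.4% at 0.875 to 1.03. The WT level of these groups was 23.0%, 35.1% and 36.3%, so WT methylation moves with the depth ratio here, and its part in these differences was not tested. The 3 groups of chromosome 14, of 28 bins each, had 29.9%, 29.5% and 30.8% of WT from the lowest to the highest ratio.

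Across bins the depth ratio and the KO level as a percentage of WT had a Pearson correlation of -0.13 on chromosome 8 (99 bins, Spearman -0.29), of 0.06 on chromosome 14 (84 bins, Spearman 0.07) and of -0.19 on the other autosomes (1704 bins, Spearman -0.21). The depth ratio and the WT level had one of 0.56 on chromosome 8, 0.24 on chromosome 14 and 0.32 on the other autosomes (Spearman 0.49, 0.18 and 0.31). Within chromosome 8 it was 0.83, 0.43 and 0.19 in the proximal, middle and distal segments (Spearman 0.62, 0.48 and -0.13). The sign in the distal segment thus depended on the measure. Within chromosome 14 the correlation was 0.58 before and -0.01 beyond 69 Mb (Spearman 0.39 and -0.05). These are descriptions across bins that share the same 4 libraries, and both measures use the same calls. The relation of depth ratio to WT level was thus seen on chromosomes without a depth difference as well: in the other 17 autosomes cut into 5 groups of bins by WT level, the median ratio was 1.00 in the least and 1.03 in the most methylated group. Between the same limits it was 0.837 and 0.874 on chromosome 8. On chromosome 14 it was 0.971 and 1.02 before 69 Mb, and 0.911 and 0.913 beyond it, where the relation was thus not seen.

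**Figure D5:**
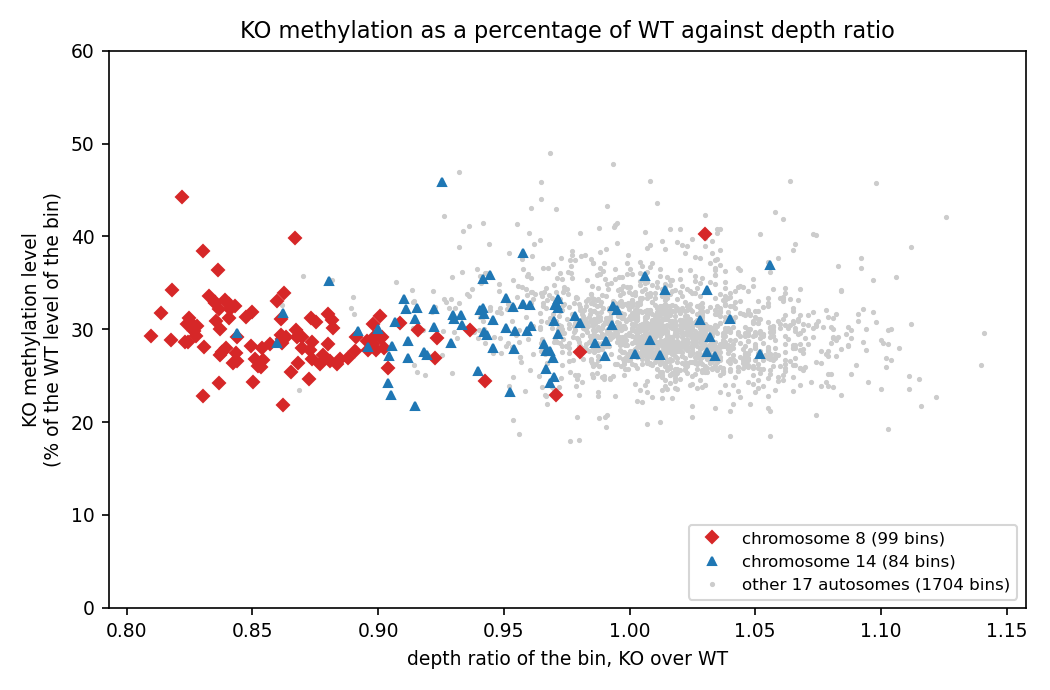
KO methylation as a percentage of the WT level of the bin (vertical axis) against the KO to WT depth ratio of the bin (horizontal axis), for chromosome 8, chromosome 14 and the other 17 autosomes. The bins of chromosome 8 lie to the left at a median of 29.1%, those of chromosome 14 between at 30.2%, and the other autosomes to the right at 29.7%.

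Some bins kept a larger or smaller part of their methylation than the rest. Among bins with a WT level of 20% or more, bin 66000001 to 67000000 of chromosome 8 kept the most, with 14.9% and 11.5% in KO, against 30.4% and 29.3% in WT. Its KO level was 44.3% of WT, with an adjusted p of 0.00191 for the difference in edgeR's test, and its depth ratio was 0.822. Next came bin 5000001 to 6000000, with 42.7% and 29.0% in KO, against 88.8% and 89.1% in WT, which is 40.3% of WT at a depth ratio of 1.03. These bins with the most methylation kept thus stood at opposite ends of the depth range of chromosome 8.

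The least was kept on chromosome 8 in bin 31000001 to 32000000, with 21.1% and 11.3% in KO, against 85.2% and 85.1% in WT, and in bin 104000001 to 105000000, with 18.5% and 13.9% in KO, against 84.9% and 84.1% in WT. Their KO levels were 19.02% and 19.2% of WT, from only 71 and 67 cytosines, and both bins had too few calls for the depth description.

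On chromosome 14 the most was kept in bin 92000001 to 93000000, with 46.6% and 32.2% in KO, against 92.7% and 92.2% in WT. Bin 124000001 to 125000000 followed, with 24.6% and 16.8% in KO, against 51.9% and 51.5% in WT. The least was kept in bin 6000001 to 7000000, with 5.14% and 3.34% in KO, against 39.3% and 34.0% in WT, and in bin 4000001 to 5000000, with 10.6% and 4.30% in KO, against 47.9% and 40.9% in WT. The KO levels of these 4 bins were 42.6%, 40.0%, 11.6% and 16.8% of WT, in the order named. The last 2 rest on 56 and 66 cytosines and were the bins named here in which the WT libraries differed most from each other. All 4 had a mean of under 5000 calls per library.

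The bins left out of the depth description had wider ratios, of 0.745 to 1.04 in 29 bins of chromosome 8 and 0.818 to 1.12 in 39 bins of chromosome 14. Their median ratios were 0.880 and 0.970. With every bin included, chromosome 14 had 14 bins at 0.9 or less with separated genotypes in place of 7, and the fit split its distal segment into 0.915 from 69000001 to 86000000, 0.972 to 97000000 and 0.916 to 126000000.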

How the data were processed

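Reduced representation bisulfite libraries were made from 50 ng of DNA cut with MspI and size selected to 150 to 500 bp, per the labels' protocols. The authors deposited, for each library and cytosine, its methylation in percent and its counts of methylated and of unmethylated calls; the counts were used. The submitters' processing notes name Trim Galore, Bismark 0.10.1 and the build mm9, without saying what each was used for. No filter or duplicate removal is given in the sources used here, and calls are not counted by molecule, so errors from counts cover counting only.

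Positions above the 99.9th percentile of calls in any library (98 to 110 calls; 6260 of 4945106 positions) were left out. The share of a bin is its calls over the autosomal calls of the library, and the depth ratio is the KO mean share over the WT mean share. Segment fits used at least 3 bins and a penalty of 3 times the variance times log n. A segment mean is the geometric mean of its bin ratios. Methylation levels sum calls over cytosines with 10 calls or more in every library. The edgeR 4.0.16 fit (R 4.3.3) used library terms, the methylated state and its interaction with genotype; limma 3.58.1 was run on logit levels with 0.5 added to each count. The permutation test is that of scipy 1.17.1. Bins at 0.9 or less (or 1.1 or more) also needed both KO shares on one side of both WT shares. The fits were tested on simulated data.

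Named bins are the 3 lowest and 3 highest depth ratios per chromosome, the first and last kept bin, and the 2 highest and 2 lowest KO percentages of WT methylation at a WT level of 20% or more; bins beside a step were also to be named, and no step was found. The chromosomes, classes and rules were chosen with earlier results of these data known. Alternatives covered percentiles, denominators, coverage, bin sizes (500 kb, 2 Mb), call minimums, thresholds, penalties, tests and libraries left out. Correction for WT methylation and calls, single-pair ratios, the 250 kb view, the classes and the fits of replicate ratios were chosen after seeing the data. So was the limit of 20 bins beside a change. No sequence is printed, since the genome tables at hand are of another assembly.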

Additional observations from a re-analysis of the deposited data

How the results depend on the processing

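Of 162 recomputed values for the chromosomes, 122 stayed within the spread between libraries or within 1.5 times of a count, and 40 moved. The depth ratios of both chromosomes all stayed below 1, and their methylation differences all stayed negative. Counts of bins and of steps have no direction, so they could only stay or move. Of 322 recomputed depth ratios of named bins, 19, in 7 bins with ratios near 1, fell on the other side of 1. The depth ratio of chromosome 8 was 0.858 with no depth percentile left out, 0.863 with the 99th, 0.850 as a share of the other 17 autosomes, 0.851 with the median bin set to 1 and 0.845 after the added correction. That of chromosome 14 was 0.944, 0.946 and 0.944 under the last 3, and 0.958 over cytosines with 10 calls or more. Bins at 0.9 or less numbered 129 of 155 and 55 of 61 on chromosome 8 with bins of 500 kb and 2 Mb, beside 85 of 99 with 1 Mb. They numbered 0 on both chromosomes at a threshold of 0.8. On chromosome 14 they numbered, of 84 bins, 14 as a share of the other autosomes, 12 with the median set to 1, 39 at a threshold of 0.95 and 11 after the correction. There they numbered 4 of 56 with 2 Mb bins, 14 of 123 with no minimum of calls, 2 of 50 with 20000 calls and 12 of 86 for KO 1 over WT 1. Steps numbered 2 on chromosome 8 and 1 on chromosome 14 both with no minimum of calls and with a minimum step of 0.05; on chromosome 14 they numbered 2 with no percentile left out and 1 for KO 1 over WT 1. Bins called lower in methylation on chromosomes 8 and 14 numbered 199 of 204 and 160 of 174 with 500 kb bins. With 2 Mb bins they numbered 63 of 63 and 61 of 61, and at 25 points 60 of 121 and 58 of 110. After centring, 54 and 47 bins lay below the shift, which is another count, with no minimum of points. With one library left out, depth ratios ran from 0.860 to 0.862 and from 0.955 to 0.957, bins at 0.9 or less from 78 to 88 and from 6 to 10, steps from 0 to 0 and from 0 to 1, methylation differences from -24.0 to -20.3 and from -22.6 to -18.9 points, and bins called lower from 20 to 119 and from 19 to 105 (without WT replicate 1 or 2 the spread rests on the KO pair). The cause of the other moves was not tested. Replicate numbers did not pair the libraries: the deviations of KO 1 and WT 1 had a correlation of -0.02 for depth and -0.01 for methylation over bins. With the replicate block the depth ratios were 0.861 and 0.956, bins at 0.9 or less 85 and 6, steps 0 and 0, methylation differences -22.1 and -20.7 points, and bins called lower 119 and 105. Depth limits bins of few calls: the SD of the log2 ratio was 0.07 in bins of 5000 to 10000 calls.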
